A study of Sus scrofa with 18 samples.

Results

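Pluripotency factors are the transcription factors, chromatin proteins, RNA-binding proteins and co-receptors that keep embryonic cells able to form every tissue of the body. The 8 genes described here, POU5F1, NANOG, SOX2, SALL4, DPPA2, LIN28A, OTX2 and TDGF1, were taken by name from the 24358 genes in the expression tables of cloned pig embryos, and all 8 were found. For 4 of them the name column held the symbol (SOX2, SALL4, LIN28A and TDGF1). The other 4 (POU5F1, NANOG, DPPA2 and OTX2) were listed there by gene identifier only and were found through that identifier or through the gene number in their description.

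The embryos were made by somatic cell nuclear transfer: the nucleus of a cultured ear cell of Diannan miniature pigs was placed in an enucleated oocyte from slaughterhouse ovaries of pre-pubertal pigs. The study asked what vitrification of the cloned zygote, which is ice-free freezing in liquid nitrogen with ethylene glycol and sucrose, does to gene expression at later stages. Embryos from vitrified and warmed zygotes and embryos from fresh zygotes were collected after chemical activation as 2-cells at 24 h (4 embryos per pool), 4-cells at 48 h (2 per pool) and blastocysts at 144 h (1 embryo per library). Each of the 6 groups had 3 libraries, 18 in all, and all 18 came from nuclear transfer, so no fertilized embryos were compared. The replicates are described as biological, but no source says whether they shared a donor cell culture, an oocyte batch or a day. The labels give the sample type of every library as zygotes, and the stage was taken from the titles.

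At the start of development an embryo lives on RNA that the oocyte stored. This maternal RNA is later cleared, and the embryo's own genome is switched on, in pigs mainly around the 4-cell stage. Of the pluripotency factors, POU5F1 (also called OCT4), NANOG and SOX2 form the core circuit of DNA-binding proteins in the inner cell mass. SALL4 is a zinc finger protein that binds the NuRD deacetylase complex, and DPPA2 is a chromatin protein that works with DPPA4 at developmental promoters. LIN28A is an RNA-binding protein that blocks the maturation of let-7 microRNAs. OTX2 is a homeobox factor of the oocyte store and, later, of the epiblast in its step towards differentiation, and TDGF1 (Cripto) is the membrane co-receptor for NODAL. The roles are best known from mouse and human cells.

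Levels are in FPKM, which is fragments per kilobase of exon scaled to the total of each library, and a gene with no fragments is listed at 0.0001. Differences are in log2(FPKM + 1) from limma and understate the change of genes near 0. Vitrified embryos were compared with fresh embryos within each stage among genes that reached 1 FPKM in 3 or more of the 6 libraries, and a gene was called at an unadjusted p below 0.05 with a difference beyond 1, which is the study's threshold. Stages were compared in 1 fit of all 18 libraries, where a call needed an adjusted p below 0.05 and a difference beyond 1. The number of embryos behind a library and its RNA content differ between stages, and a lower share of one cell type and less RNA per cell cannot be told apart in these libraries.

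The libraries held 7551 to 8841 genes at 1 FPKM or more. One library stood apart: vitrified 4-cell replicate 3 had a mean correlation of 0.808 with the other 4-cell libraries, against 0.895 to 0.914 for the other 5. It was the highest of the 6 libraries for 25.0% and the lowest for 44.2% of the 8769 genes tested in 4-cells. The stages carried the markers of their names. The summed FPKM of 10 oocyte genes was 2540 to 4797 in 2-cells, 1260 to 2113 in 4-cells and 1.21 to 5.68 in blastocysts. That of 12 trophectoderm genes was 2.57 to 9.77 in 2-cells, 6.70 to 180 in 4-cells and 2135 to 4155 in blastocysts. The 180 FPKM was in vitrified 4-cell replicate 3, where TFAP2C alone was at 175 FPKM. The fibroblast genes of the donor cell type summed to at most 10.0 FPKM in any library. The core epiblast genes were low in blastocysts, at up to 3.84 FPKM for NANOG and up to 0.209 FPKM for SOX2, and only POU5F1 of the core circuit stood high.

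Across stages the 8 genes followed different courses. OTX2 and LIN28A were among the more abundant transcripts of 2-cells and 4-cells and fell in blastocysts in both vitrified and fresh embryos. POU5F1 rose in blastocysts, TDGF1 was detected above 1 FPKM in blastocysts only, and NANOG was high in 4-cells alone. Between vitrified and fresh embryos, SALL4 was higher in vitrified 4-cells and OTX2 was lower in vitrified blastocysts at the study's threshold. Neither passed after adjustment over all genes, and each call was lost when certain single libraries were left out.

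**Figure D1:**
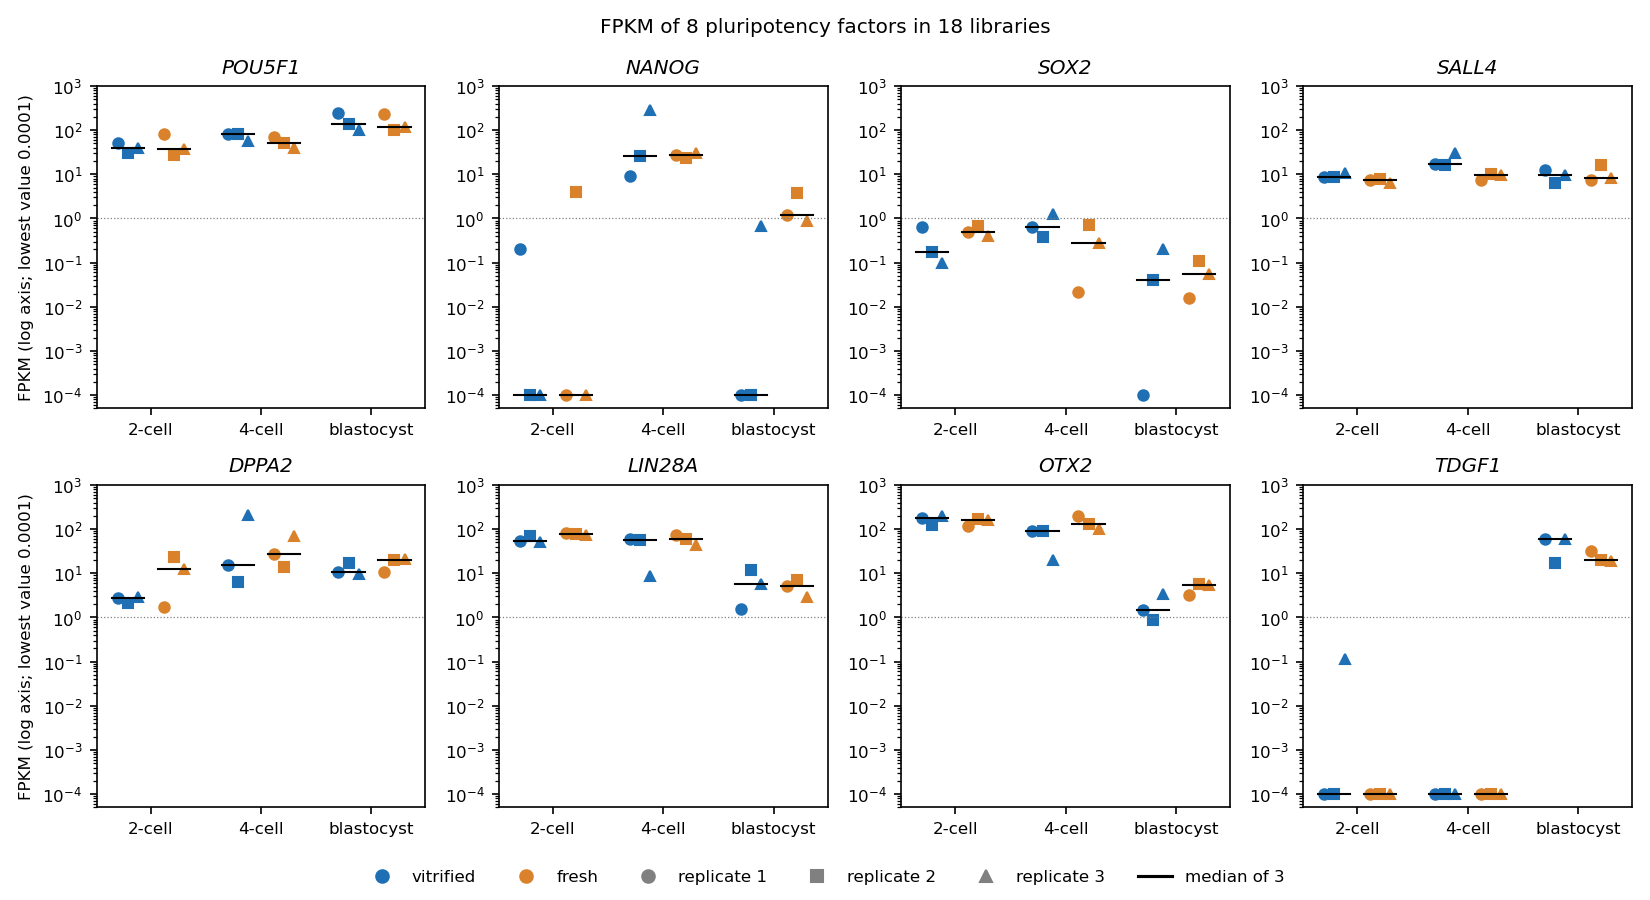
FPKM (log axis) of the 8 pluripotency factors in each of the 18 libraries, with vitrified libraries in blue to the left of fresh libraries in orange at every stage, a symbol for each replicate number and a black line at the median of 3; the dotted line marks 1 FPKM. OTX2 and LIN28A drop at the blastocyst stage, TDGF1 appears there, NANOG peaks in 4-cells with 289 FPKM in vitrified replicate 3, and SOX2 exceeds 1 FPKM in 1 of 18 libraries.

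In the count of calls, vitrified against fresh 2-cells gave 0 of the 5 factors tested, where 0.450% of 8449 genes were called. None of the 5 had an unadjusted p below 0.05 in limma, where 3.75% of genes had. In 4-cells 1 of 6 was called (SALL4, higher), where 3.46% of 8769 genes were called, and in blastocysts 1 of 6 (OTX2, lower), where 2.26% of 7833 genes were called. After adjustment no member passed at any stage, where 0% of genes passed in 2-cells, 0.0114% in 4-cells and 0.0128% in blastocysts. The members' median difference was -0.14 in 2-cells, 0.19 in 4-cells and -0.01 in blastocysts, against -0.05, -0.16 and 0.11 over all genes tested. SOX2 passed the filter at no stage, TDGF1 passed it in blastocysts and NANOG in 4-cells. Another scaling moved the split of all calls between higher and lower: in 4-cells 87 genes were higher and 216 lower, and after quantile normalization 165 were higher and 129 lower. In blastocysts 117 were higher and 60 lower, and after quantile normalization 54 were higher and 82 lower. In 2-cells the corresponding numbers were 15 higher and 23 lower, and 22 higher and 13 lower. SALL4 in 4-cells and OTX2 in blastocysts kept both direction and call under quantile normalization and under median ratio scaling.

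**Figure D2:**
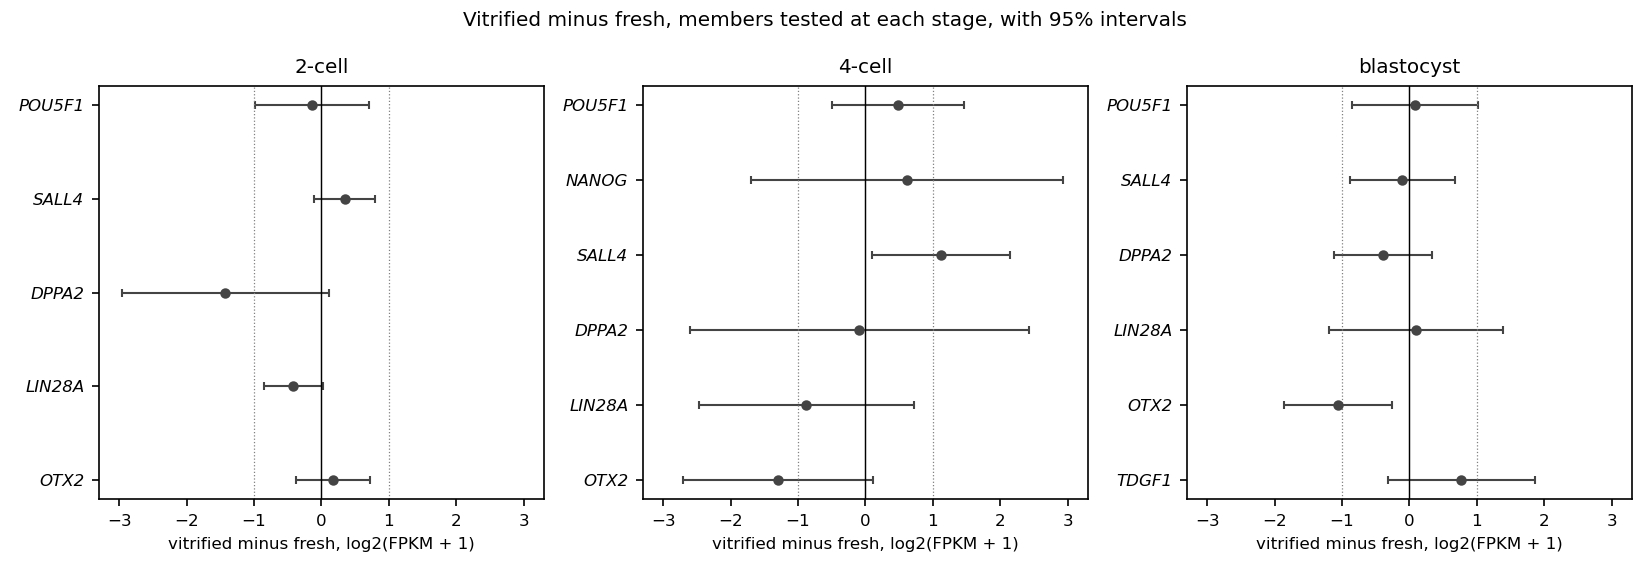
Vitrified minus fresh difference of log2(FPKM + 1) for the members tested at each stage, with 95% intervals from limma; dotted lines mark a difference of 1 in either direction. The interval excludes 0 for SALL4 in 4-cells (0.10 to 2.14) and for OTX2 in blastocysts (-1.86 to -0.25), and NANOG and DPPA2 in 4-cells have the widest intervals.

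Between stages, 4 of 7 members were called from 2-cells to 4-cells in vitrified embryos, where 19.9% of 11361 genes were called, and 1 of 7 in fresh embryos, where 8.52% were called. From 4-cells to blastocysts 6 of 7 were called in vitrified embryos (background 58.6%) and 5 of 7 in fresh embryos (background 62.5%). Between 2-cells and blastocysts 4 of 7 were called in vitrified embryos (background 64.1%) and 4 of 7 in fresh embryos (background 66.5%). TDGF1 passed the filter through its blastocyst libraries alone and NANOG largely through 4-cells, so these counts say little about the list. The median over all genes moved too: blastocysts against 4-cells gave -0.38 in vitrified and -0.56 in fresh embryos. In fresh embryos 2712 genes were higher and 4385 lower in blastocysts than in 4-cells, and quantile normalization gave 3477 higher and 3462 lower. Against 2-cells 2953 were higher and 4597 lower, and median ratio scaling gave 3861 higher and 3622 lower. No call of a member changed its direction under either scaling.

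POU5F1, the OCT4 gene at the head of the core circuit, was present in every library and was highest in blastocysts. It stood at 50.6, 31.1 and 39.9 FPKM in vitrified 2-cells and at 80.3, 28.1 and 37.7 FPKM in fresh 2-cells. In 4-cells it stood at 81.7, 81.2 and 57.8 FPKM in vitrified and at 71.4, 50.6 and 38.8 FPKM in fresh embryos. In blastocysts it reached 247, 136 and 102 FPKM in vitrified and 237, 101 and 121 FPKM in fresh embryos. Every blastocyst library lay above every 2-cell and 4-cell library, and at each stage the vitrified and fresh values overlapped.

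From 4-cells to blastocysts POU5F1 rose by 1.05 in vitrified embryos (SE 0.43, adjusted p = 0.0384) and by 1.44 in fresh embryos (SE 0.43, adjusted p = 0.00613). Over the whole course from 2-cells it rose by 1.90 in vitrified (adjusted p = 0.000708) and 1.67 in fresh embryos (adjusted p = 0.00194). The rise over 4-cells in vitrified embryos was the weakest of these: its call was lost under quantile normalization (0.78, adjusted p = 0.130) and without vitrified blastocyst replicate 1 (0.69, adjusted p = 0.189), and also without any 1 of the 3 vitrified 4-cell libraries or vitrified blastocyst replicate 2. It was lost too without a filter (adjusted p = 0.0912) and with only the 6 libraries compared (adjusted p = 0.0772). Vitrified minus fresh was -0.14 in 2-cells, 0.48 in 4-cells and 0.08 in blastocysts, with 95% intervals of -0.99 to 0.70, -0.50 to 1.46 and -0.85 to 1.02.

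NANOG, the homeobox partner of POU5F1, was a 4-cell transcript in these embryos. It was at 0.199, 0.0001 and 0.0001 FPKM in vitrified 2-cells and at 0.0001, 4.04 and 0.0001 FPKM in fresh 2-cells. In 4-cells it was at 8.97, 25.4 and 289 FPKM in vitrified and at 27.3, 23.1 and 29.9 FPKM in fresh embryos. In blastocysts it was at 0.0001, 0.0001 and 0.674 FPKM in vitrified and at 1.21, 3.84 and 0.873 FPKM in fresh embryos. The 3 fresh 4-cell libraries lay close together, while the vitrified ones spread widely on both sides of them, with replicate 3 at 9.64 times the next library. RefSeq's pig gene table lists a second NANOG entry, and how fragments were shared between near-identical copies is not given in the sources used here, so these levels are uncertain.

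NANOG was higher in 4-cells than in 2-cells by 5.32 in vitrified (SE 0.86, adjusted p = 0.000457) and by 4.01 in fresh embryos (SE 0.86, adjusted p = 0.00782), and without vitrified 4-cell replicate 3 the vitrified difference was 3.93. From 4-cells to blastocysts it fell by 5.16 in vitrified and by 3.35 in fresh embryos (adjusted p = 4.96e-05 and 0.00217). All 6 of the 4-cell libraries lay above all 12 others. Vitrified minus fresh in 4-cells was 0.62 (95% interval -1.70 to 2.93), and without vitrified replicate 3 it was -0.77. In blastocysts all 3 vitrified libraries lay below all 3 fresh ones, but the gene did not pass the filter and was not tested.

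SOX2, the HMG-box partner of POU5F1, was close to the floor throughout and was tested in no comparison. It ranged from 0.0960 to 0.636 FPKM in vitrified 2-cells and from 0.409 to 0.660 FPKM in fresh 2-cells. In 4-cells it ranged from 0.373 to 1.28 FPKM in vitrified and from 0.0213 to 0.722 FPKM in fresh embryos. In blastocysts it ranged from 0.0001 to 0.209 FPKM in vitrified and from 0.0160 to 0.107 FPKM in fresh embryos. The vitrified and fresh values overlapped at every stage. The single library above 1 FPKM was vitrified 4-cell replicate 3.

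SALL4, the zinc finger factor that recruits NuRD, had moderate levels throughout and was the member called between vitrified and fresh 4-cells. It stood at 8.83, 8.67 and 10.7 FPKM in vitrified 2-cells and at 7.41, 7.74 and 6.44 FPKM in fresh 2-cells. In 4-cells it stood at 17.2, 16.5 and 30.6 FPKM in vitrified and at 7.34, 10.0 and 9.65 FPKM in fresh embryos. In blastocysts it stood at 12.5, 6.31 and 9.78 FPKM in vitrified and at 7.32, 15.9 and 8.46 FPKM in fresh embryos. All 3 vitrified libraries were above all 3 fresh ones in 2-cells and again in 4-cells, and the groups overlapped in blastocysts.

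In 4-cells SALL4 averaged 21.4 FPKM in vitrified and 9.01 FPKM in fresh embryos, and the difference was 1.12 (SE 0.45, 95% interval 0.10 to 2.14, adjusted p = 0.947, limma), with an unadjusted p below 0.05. Without vitrified replicate 3 the difference was 0.84 and missed the fold threshold. Without fresh replicate 1, 2 or 3 it was 0.99, 1.19 and 1.17, and the call was lost each time. In 2-cells the difference was 0.34 (95% interval -0.11 to 0.79), and in blastocysts it was -0.10 (95% interval -0.88 to 0.67). The vitrified minus fresh difference was lower by 1.22 in blastocysts than in 4-cells (SE 0.45, adjusted p = 0.337, limma), which did not pass the adjusted threshold.

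Over development SALL4 moved in vitrified embryos. It rose by 1.06 from 2-cells to 4-cells (SE 0.32, adjusted p = 0.0242) and fell by 1.08 from 4-cells to blastocysts (SE 0.32, adjusted p = 0.00693). In fresh embryos the same steps gave 0.28 (95% interval -0.40 to 0.96) and 0.14 (95% interval -0.53 to 0.82). Both vitrified calls were lost without vitrified 4-cell replicate 3, at 0.78 and -0.80, and the second also under quantile normalization (-0.70, adjusted p = 0.0589) and median ratio scaling (-0.66, adjusted p = 0.0791). The first was lost as well without vitrified 2-cell replicate 1 (1.02) or 2 (1.01), and the second without vitrified blastocyst replicate 2 (-0.84). With only the 6 libraries compared both were lost (adjusted p = 0.116 and 0.0658).

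DPPA2, the chromatin factor of developmental promoters, was scattered widely in 2-cells and 4-cells. It stood at 2.83, 2.09 and 2.85 FPKM in vitrified 2-cells and at 1.72, 22.9 and 12.5 FPKM in fresh 2-cells. In 4-cells it stood at 15.8, 6.34 and 206 FPKM in vitrified and at 28.1, 13.7 and 70.8 FPKM in fresh embryos. In blastocysts it stood at 10.9, 17.6 and 9.89 FPKM in vitrified and at 10.8, 20.0 and 20.9 FPKM in fresh embryos. Replicate 3 was the highest library of both 4-cell groups, and the vitrified and fresh values overlapped at every stage.

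In vitrified embryos DPPA2 rose by 3.04 from 2-cells to 4-cells (SE 0.94, adjusted p = 0.0261), and all 3 of the 4-cell libraries lay above the 2-cell ones. Without vitrified 4-cell replicate 3 the difference was 1.64 (adjusted p = 0.136), and without vitrified 2-cell replicate 1, 2 or 3 it was 3.09, 2.94 and 3.10 with the call lost each time. It was lost too without a filter (adjusted p = 0.102) and with only the 6 libraries compared (adjusted p = 0.105). In fresh embryos the step was 1.71 (SE 0.94, 95% interval -0.27 to 3.69). Vitrified minus fresh was -1.42 in 2-cells (95% interval -2.96 to 0.11), and without fresh 2-cell replicate 1, the library as low as the vitrified ones, it was -2.33 and called at the study's threshold (adjusted p = 0.0720, limma). Without fresh 2-cell replicate 2, the highest, it was -0.77. In 4-cells it was -0.09 (95% interval -2.60 to 2.42), and in blastocysts -0.39 (95% interval -1.12 to 0.33).

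LIN28A, the RNA-binding repressor of let-7, was abundant in 2-cells and 4-cells and low in blastocysts. It stood at 54.8, 70.6 and 50.3 FPKM in vitrified 2-cells and at 83.1, 77.0 and 73.8 FPKM in fresh 2-cells. In 4-cells it stood at 61.1, 55.6 and 8.74 FPKM in vitrified and at 75.5, 61.3 and 43.4 FPKM in fresh embryos. In blastocysts it stood at 1.60, 11.9 and 5.71 FPKM in vitrified and at 5.05, 6.88 and 2.89 FPKM in fresh embryos. All 3 vitrified 2-cell libraries lay below the fresh ones, and vitrified 4-cell replicate 3 was down among the blastocyst values.

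From 2-cells to blastocysts LIN28A fell by 3.28 in vitrified (SE 0.60, adjusted p = 0.000114) and by 3.79 in fresh embryos (SE 0.60, adjusted p = 2.42e-05). From 4-cells to blastocysts it fell by 2.42 in vitrified (adjusted p = 0.00199) and by 3.38 in fresh embryos (adjusted p = 8.73e-05). These 4 calls held without each library in turn. Vitrified minus fresh was -0.42 in 2-cells (95% interval -0.86 to 0.02). In 4-cells it was -0.88 (95% interval -2.47 to 0.72), and without vitrified replicate 3 it was -0.01. In blastocysts it was 0.09 (95% interval -1.20 to 1.38), and the sign turned under both other scalings.

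OTX2, the homeobox gene that oocytes store, had the largest fall between 2-cells and blastocysts of the 7 factors tested, in vitrified and in fresh embryos. It stood at 181, 124 and 197 FPKM in vitrified 2-cells and at 115, 169 and 159 FPKM in fresh 2-cells. In 4-cells it stood at 92.4, 91.0 and 20.5 FPKM in vitrified and at 200, 132 and 101 FPKM in fresh embryos. In blastocysts it stood at 1.50, 0.866 and 3.38 FPKM in vitrified and at 3.25, 5.62 and 5.53 FPKM in fresh embryos. In 4-cells all 3 vitrified libraries lay below all 3 fresh ones, and in blastocysts vitrified replicate 3 overlapped the lowest fresh library.

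From 2-cells to blastocysts OTX2 fell by 5.91 in vitrified (SE 0.48, adjusted p = 1.22e-08) and by 4.69 in fresh embryos (SE 0.48, adjusted p = 1.67e-07), and both calls held without each library in turn. The mean FPKM in 2-cells was 87.2 times that in blastocysts in vitrified embryos and 30.8 times in fresh embryos. In vitrified embryos OTX2 had already fallen by 1.53 in 4-cells (SE 0.48, adjusted p = 0.0288), while fresh embryos gave -0.07 (95% interval -1.09 to 0.95). That vitrified call was lost without vitrified 4-cell replicate 3 (-0.83), without vitrified 2-cell replicate 1 (-1.47) and without vitrified 2-cell replicate 3 (-1.40), and also without a filter (adjusted p = 0.0841) and with only the 6 libraries compared (adjusted p = 0.132). The vitrified minus fresh difference was lower by 1.46 in 4-cells than in 2-cells (SE 0.68, adjusted p = 0.667, limma), which did not pass the adjusted threshold.

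In vitrified blastocysts OTX2 was lower than in fresh blastocysts, at a mean of 1.92 FPKM in vitrified and 4.80 FPKM in fresh embryos, with a difference of -1.06 (SE 0.35, 95% interval -1.86 to -0.25, adjusted p = 0.211, limma) and an unadjusted p below 0.05. Without vitrified replicate 1 or 2 the difference was -0.99 and -0.78, and without fresh replicate 2 or 3 it was -0.95 and -0.96, with the call lost in each case. In 4-cells the difference was -1.30 (SE 0.63, 95% interval -2.71 to 0.11). With the replicate number as a block, which treats same-numbered libraries as pairs, OTX2 in 4-cells was called (adjusted p = 0.725, limma). That fit called 2 members rather than 1, and 486 rather than 303 genes. Without vitrified replicate 3 the 4-cell difference was -0.59, and without vitrified replicate 1 or 2 it was -1.65 and -1.64 and called. In 2-cells it was 0.17 (95% interval -0.38 to 0.71).

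TDGF1, the NODAL co-receptor, was a blastocyst transcript. It was listed at 0.0001 FPKM in 11 of the 12 2-cell and 4-cell libraries, and vitrified 2-cell replicate 3 had 0.113 FPKM. In blastocysts it stood at 61.1, 17.3 and 60.2 FPKM in vitrified and at 31.5, 20.3 and 19.5 FPKM in fresh embryos. Vitrified replicates 1 and 3 lay above all fresh libraries and replicate 2 below them. Vitrified minus fresh was 0.77 (SE 0.47, 95% interval -0.32 to 1.86), and without vitrified replicate 2 it was 1.35 and called at the study's threshold (adjusted p = 0.214, limma). Without vitrified replicate 1 it was 0.47. No fold is given against the earlier stages, where the gene was listed at the floor.

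**Figure D3:**
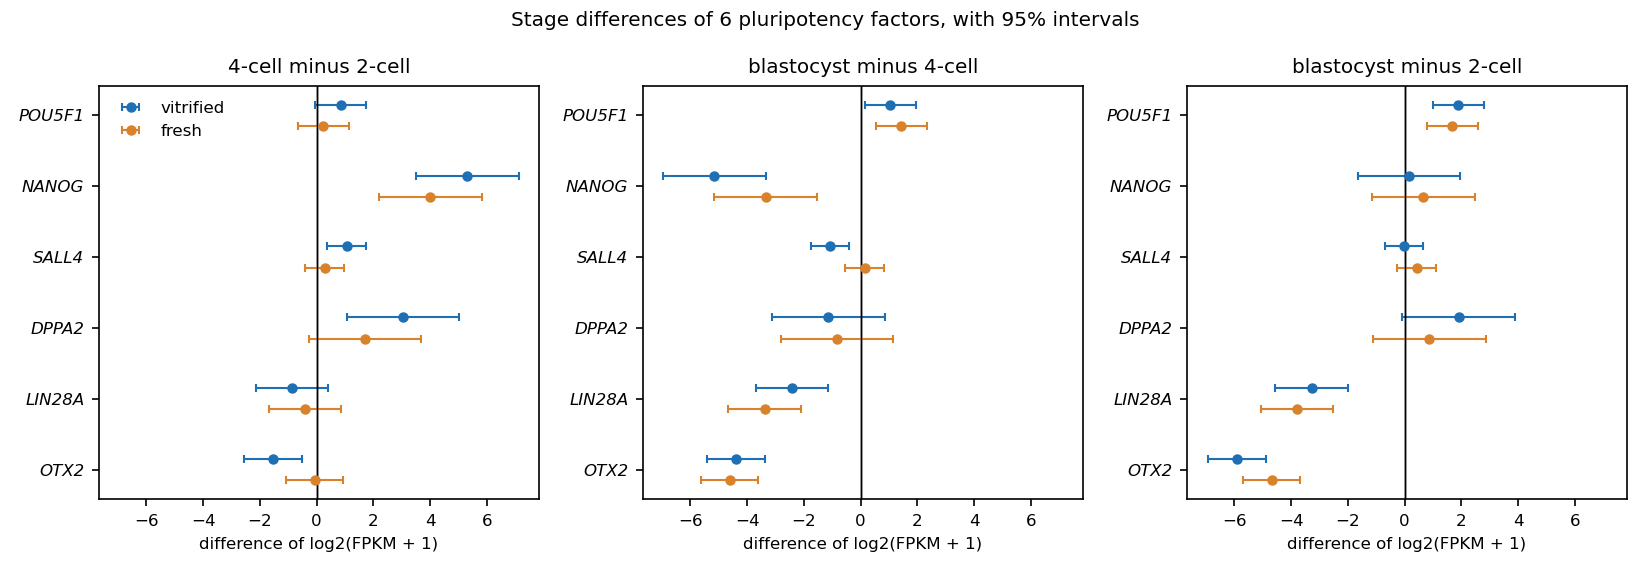
Stage differences of log2(FPKM + 1) for 6 members, without SOX2 and TDGF1, with 95% intervals from the limma fit of 18 libraries. Vitrified embryos are drawn in blue above fresh embryos in orange. NANOG was below 1 FPKM in most 2-cell and blastocyst libraries, so its differences from 4-cells are largely against values near the floor. OTX2 and LIN28A lie far left of 0 in the blastocyst panels, NANOG is right of 0 in 4-cells and left of 0 from 4-cells to blastocysts, and the vitrified and fresh intervals of each gene overlap in every panel.

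By order of mean FPKM, which is scaled by gene length, OTX2 led in 2-cells at 157, followed by LIN28A at 68.3 and POU5F1 at 44.6 over the 6 libraries, above 95.6%, 89.8% and 85.3% of the genes tested. The ranges of OTX2 and LIN28A did not overlap, and those of LIN28A and POU5F1 did. SALL4 at 8.30 and DPPA2 at 7.48 came next, and NANOG, SOX2 and TDGF1 were below 1. In 4-cells, where vitrified replicate 3 raised the means of NANOG and DPPA2, the medians were 96.7 for OTX2, 64.6 for POU5F1, 58.3 for LIN28A, 26.4 for NANOG and 21.9 for DPPA2, and the ranges of these 5 overlapped. In blastocysts POU5F1 led at 157, above 94.1% of genes, followed by TDGF1 at 35.0, and the ranges of both did not overlap. DPPA2 at 15.0, which overlapped TDGF1, SALL4 at 10.0, LIN28A at 5.68 and OTX2 at 3.36 followed, each overlapping the next.

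No member's vitrified minus fresh difference passed the adjusted threshold for a change between stages: 0 of 7 tested for each pair of stages, where 0.0176% of 11361 genes passed from 2-cells to 4-cells, 0.0264% from 4-cells to blastocysts and 0.0176% from 2-cells to blastocysts. In the limma fit SALL4 and OTX2, given above, had an unadjusted p below 0.05. The count of members whose vitrified and fresh libraries did not overlap was 2 of 5 tested in 2-cells (SALL4 higher, LIN28A lower), where 9.44% of genes did not overlap. It was 2 of 6 in 4-cells (SALL4 higher, OTX2 lower), where 11.1% did not overlap, and 0 of 6 in blastocysts, where 22.6% did not.

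Vitrified 4-cell replicate 3 was beyond the other 5 libraries of its stage for 6 members. Over all 8769 genes tested in 4-cells it was the highest for 25.0% and the lowest for 44.2%. The count of 6 is therefore not particular to the members. NANOG, DPPA2, SALL4 and SOX2 were above the other 5 libraries, by 9.64, 2.90, 1.78 and 1.77 times the nearest library. LIN28A and OTX2 were below the other 5 libraries, at 4.96 and 4.44 times less than the nearest. POU5F1 lay within the others, and TDGF1 was at the floor in all 6. Fresh 4-cell replicate 3 was the highest of the fresh libraries for NANOG and DPPA2 and the lowest for LIN28A and OTX2. For NANOG the lead was small, at 29.9 FPKM against 27.3 FPKM in fresh replicate 1. For SALL4 and SOX2 it lay between the other fresh libraries. The share of all genes for which it was highest or lowest of the fresh libraries was not counted, so this is a description. The naive pluripotency factor KLF17 was at 218 FPKM in vitrified replicate 3 and at most 12.5 FPKM in the other 4-cell libraries. KLF4, a Krüppel-like factor of the naive state, was at 125 FPKM there, at 52.8 FPKM in fresh replicate 3 and at most 7.62 FPKM in the rest. The naive genes went both ways in vitrified replicate 3. ESRRB, NR5A2, PRDM14, ZFP42, FGF4 and SOX15 were also highest there, and TFCP2L1, KLF2 and TBX3 were lowest. DPPA5 was lowest there too, at 1642 FPKM against 2874 to 4954 FPKM in the rest. The oocyte gene OOEP was at 39.8 FPKM in vitrified replicate 3 and at 330 to 788 FPKM in the rest. ZP2, ZP3, GDF9, FIGLA, NOBOX and ZAR1 were also lowest in vitrified replicate 3. ZP4, BMP15 and MOS, at 515, 462 and 142 FPKM there, lay within the other 4-cell libraries. What set this library apart was not tested.

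**Figure D4:**
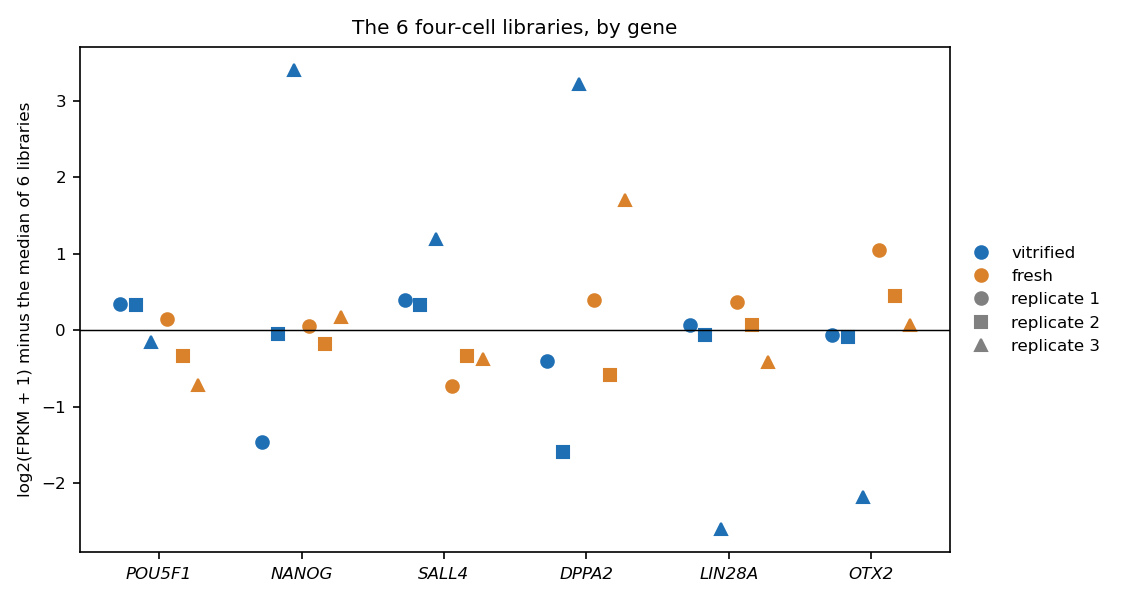
Each 4-cell library's log2(FPKM + 1) minus the median of the 6 libraries for 6 members, with vitrified libraries in blue, fresh libraries in orange and a symbol for each replicate number. The blue triangle (vitrified replicate 3) is the highest point for NANOG, SALL4 and DPPA2 and the lowest for LIN28A and OTX2; for SALL4 the other vitrified libraries also lie above all fresh ones.

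The genes that work with the members are described by role. Among 16 naive pluripotency genes, 14 were in the tables, and none was called between vitrified and fresh embryos (0 of 5, 0 of 8 and 0 of 10 tested in 2-cells, 4-cells and blastocysts). Their median difference was -0.37, 0.39 and 0.07, against -0.05, -0.16 and 0.11 over all genes. In limma 1, 0 and 2 of them had an unadjusted p below 0.05: KLF2 in 2-cells (-0.65), and KLF5 (0.77, adjusted p = 0.137) and ZFP42 (0.80, adjusted p = 0.278) in blastocysts, none reaching the fold threshold. Over all genes 3.75%, 3.72% and 16.2% had such a p at the 3 stages. Between 2-cells and blastocysts 6 of 12 tested rose and 1 fell in vitrified embryos, where 27.3% of all genes rose and 36.8% fell, and 5 rose and 2 fell in fresh embryos, where 26.0% rose and 40.5% fell. KLF5 and ZFP42, which marks naive stem cells as REX1, rose in both. A gene below 1 FPKM in all 2-cells, or in all blastocysts, could enter the fit only through the stages where it was high, which sets the direction of its stage difference, so these counts and differences are descriptions. Among the genes named here and in the lists that follow this held for ESRRB, TBX3, UTF1, FURIN, IGF2BP1 and MBD3, and for ETV5, SALL2, LIN28B and ACVR1B. ESRRB, TBX3 and UTF1 reached 1 FPKM in 8, 7 and 6 of 18 libraries, all 6 blastocysts among them. DPPA5, an RNA-binding protein, had differences of -4.64 in vitrified and -4.06 in fresh embryos, a fall in both. ZFP42 reached 70.8, 34.4 and 31.1 FPKM in vitrified and 29.5, 21.2 and 21.8 FPKM in fresh blastocysts, while NANOG was at most 3.84 FPKM there.

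Of 14 genes of the formative and primed states, 3 were tested in 2-cells and 3 in 4-cells with none called and none at an unadjusted p below 0.05 in limma, and none passed the filter in blastocysts. The largest differences were -0.38 for the DNA methyltransferase DNMT3B in 2-cells and -0.54 for SALL2, a relative of SALL4, in 4-cells. Between 2-cells and blastocysts 2 of 4 fell in vitrified embryos and 3 of 4 in fresh embryos, where 36.8% and 40.5% of all genes fell. ETV5, an ETS factor of the formative state, fell by 1.94 in vitrified and by 2.12 in fresh embryos, and SALL2 by 1.40 in vitrified and by 1.31 in fresh embryos.

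The LIN28 and let-7 pathway had 11 of 12 genes in the tables. None was called between vitrified and fresh embryos (0 of 7, 0 of 9 and 0 of 8 tested, limma), and none had an unadjusted p below 0.05. The nearest was DROSHA, the nuclear microRNA-processing enzyme, at -0.95 in 4-cells (adjusted p = 0.947, limma). LIN28B, the second LIN28 gene, fell from 2-cells to blastocysts by 2.07 in vitrified and by 1.72 in fresh embryos, as LIN28A did. TUT7, which adds the uridine tail that marks let-7 precursors for decay, fell by 2.25 in vitrified and by 2.51 in fresh embryos. The RNA-binding proteins IGF2BP3 and IGF2BP1, both let-7 targets, went opposite ways: IGF2BP3 fell by 3.99 in vitrified and by 4.57 in fresh embryos, and IGF2BP1 rose by 4.47 in vitrified and by 4.85 in fresh embryos. IGF2BP3 was at 34.4 to 39.4 FPKM in vitrified and at 40.1 to 43.7 FPKM in fresh 2-cells and below 2 FPKM in every blastocyst, while IGF2BP1 was below 0.1 FPKM in every 2-cell library and at 17.4 to 30.7 FPKM in vitrified and 25.9 to 31.3 FPKM in fresh blastocysts.

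For the NODAL pathway, which TDGF1 serves, 14 of 16 genes were in the tables and none was called between vitrified and fresh embryos (0 of 6, 0 of 7 and 0 of 5 tested, limma). With an unadjusted p below 0.05, as 16.2% of all genes had in blastocysts, there were 0, 0 and 2: FURIN, a protease that processes NODAL, at 0.67 (adjusted p = 0.200, limma) and the ligand GDF3 at -0.57 (adjusted p = 0.303) in blastocysts. The ligand and its co-receptor did not coincide: NODAL was at 0.365 to 1.01 FPKM in vitrified and 0.696 to 2.90 FPKM in fresh 2-cells and was listed at 0.0001 FPKM in all 6 blastocysts, where TDGF1 stood at 17.3 to 61.1 FPKM. GDF3, which can also signal through TDGF1, rose from 2-cells to 4-cells by 3.47 in vitrified (adjusted p = 2.37e-05) and by 2.45 in fresh embryos (adjusted p = 0.000988, limma). It was at 8.64, 6.75 and 12.2 FPKM in vitrified and at 14.8, 15.0 and 11.6 FPKM in fresh blastocysts. The type I receptor ACVR1B fell from 2-cells to blastocysts by 1.49 in vitrified and by 1.54 in fresh embryos. FURIN was at 4.42 to 6.59 FPKM in vitrified and 2.65 to 3.63 FPKM in fresh blastocysts, and at most 0.817 FPKM before.

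Of the NuRD complex, the partner of SALL4, 11 of 12 genes were in the tables. None of 8 was called in 2-cells and none of 10 in 4-cells, and none had an unadjusted p below 0.05 there in limma. In blastocysts 1 of 10 was called, where 2.26% of all genes were: the deacetylase HDAC1 was at 26.6, 22.7 and 20.2 FPKM in vitrified and at 4.29, 17.4 and 5.36 FPKM in fresh embryos, a difference of 1.49 (adjusted p = 0.187, limma). All 3 vitrified libraries lay above the fresh ones. RBBP4, a histone chaperone of the complex, also had an unadjusted p below 0.05 there (0.60, adjusted p = 0.246, limma). The histone chaperones RBBP4 and RBBP7 fell between 2-cells and blastocysts, with differences of -3.26 and -2.80 in vitrified and of -3.66 and -3.26 in fresh embryos, and MBD3, which scaffolds the complex, rose by 2.72 in vitrified and by 3.11 in fresh embryos.

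Markers of other cell types moved beside the member calls. In 4-cells 2 of 10 oocyte genes were lower in vitrified embryos (FIGLA by 1.53 and ZP3 by 1.25), where 2.46% of all genes were lower, none was higher, and the oocyte sum was 1260 to 1830 FPKM in vitrified and 1884 to 2113 FPKM in fresh libraries. In blastocysts 3 of 6 hypoblast genes were lower in vitrified embryos (APOE by 3.07, HNF4A by 1.39 and PDGFRA by 1.21), where 0.766% of all genes were lower. HNF4A and PDGFRA reached 1 FPKM in all 3 fresh blastocysts and, of the vitrified ones, in replicate 3 alone. They passed the filter through the fresh group, where they were high, so this count is a description. GATA6, an early hypoblast factor, went the other way at 18.6 to 22.7 FPKM in vitrified and 12.0 to 16.0 FPKM in fresh blastocysts (0.59, adjusted p = 0.205, limma), with an unadjusted p below 0.05 and no call. The hypoblast sum was 21.8 to 33.1 FPKM in vitrified and 35.9 to 62.7 FPKM in fresh libraries. Much of that gap lay in APOE alone, at 1.82, 0.0001 and 9.93 FPKM in vitrified and 13.8, 42.4 and 27.8 FPKM in fresh blastocysts. The sum therefore does not show a fall of the list as a whole. SOX17, a defining hypoblast gene, was listed at 0.0001 FPKM in all 3 vitrified and in 1 of 3 fresh blastocysts. None of 10 trophectoderm genes was called in limma, although 5 had an unadjusted p below 0.05, where 16.2% of all genes had, and they went both ways: CDX2 (-0.52), KRT8 (-0.78) and KRT18 (-0.57) were lower and GATA3 (0.38) and TFAP2C (0.69) higher in vitrified blastocysts. The sum of the 12 on the list, nearly all of it the keratins KRT8 and KRT18, was 2135 to 3507 FPKM in vitrified and 3767 to 4155 FPKM in fresh blastocysts. The part of these shifts in the SALL4 and OTX2 differences was not tested.

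The genes whose levels ran most like each member over the 18 libraries were found by Pearson's r of log2(FPKM + 1) among 10524 genes. These values are a description, since libraries share stage and treatment. OTX2 ran with EHHADH, VCAN and NELL1 (r = 0.99 each) and LIN28A with RABEP1, FBXO21 and RNF219 (r = 0.98 each). TDGF1 ran with RARRES2, KIFC3 and MYL9 (r = 0.99 each), and POU5F1 with AP2M1, EPHX2 and CLN3 (r = 0.94, 0.94 and 0.93), all of them highest in blastocysts, where KIFC3 reached only 0.807 to 1.56 FPKM. NANOG ran with UBTFL1, PRPF38A and MAGOHB (r = 0.96, 0.95 and 0.95), and PRPF38A stood at 417 FPKM in vitrified 4-cell replicate 3 and at 67.4 to 121 FPKM in the other 4-cell libraries. DPPA2 ran with ZBTB8A, UTP15 and SNAI1 (r = 0.89, 0.87 and 0.87), and without that library at 0.82, 0.78 and 0.80. SALL4 ran with SPRY2, SLC12A2 and TP53RK (r = 0.87, 0.85 and 0.84), and without that library at 0.84, 0.70 and 0.67. Among the members, LIN28A and OTX2 ran together (r = 0.93, and 0.54 after removing group means), and NANOG and DPPA2 did so (r = 0.74, 0.74 after removing group means, and 0.58 without that library).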

How the data were processed

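Full-length cDNA of pooled or single embryos was amplified and sequenced; the study's methods name SMART-Seq v4 and Nextera XT, whereas the labels describe a small RNA kit. The authors used Cutadapt for trimming and FastQC for read quality, Bowtie2 and HISAT2 as aligners, and StringTie for transcript assembly and for the deposited FPKM of each library. Tool versions, genome build and annotation are not given in the sources used here, and depth per library cannot be read from FPKM and was not used here. The 3 deposited tables, 1 per stage, also hold the authors' own fold change (ratio), its log2, and p-values and q-values. These were not used. FPKM is scaled within each library, so libraries were set across tables on that scale.

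Of 24358 genes, 6907 had no symbol in the deposited tables. Among these, 951 symbols were filled in from the gene identifier and 719 from the NCBI gene number, and the rest stayed without a symbol. Values were tested as log2(FPKM + 1) with limma 3.58.1 in R 4.3.3 (linear model, empirical Bayes with trend), with Benjamini-Hochberg adjustment over all genes tested. The filter was 1 FPKM or more in at least 3 of 6 libraries, or 3 of 18 for stages. The script was tested on simulated data. Same-numbered vitrified and fresh 4-cell libraries correlated at r = 0.22, 0.37 and 0.42 after removing group means. Differently numbered ones gave -0.41 to 0.23. Same-numbered 2-cells gave 0.03, -0.11 and 0.11, and blastocysts 0.25, 0.05 and 0.00. With 3 libraries per group these values do not establish that the replicates were paired. Alternatives were a pseudocount of 0.1, no filter, quantile normalization, median ratio scaling, a filter at a mean of 5 FPKM, the replicate block, the other set of libraries in the fit, and leaving out each library. All members were named; of other lists, up to 4 genes with the largest change among those called or tested, and for stages further genes chosen after their values were seen. The members and lists were chosen with earlier results of these data known. No sequences or coordinates were used here.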

Additional observations from a re-analysis of the deposited data

How the results depend on the processing

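No called value of a member turned its direction: of 1243 values under alternatives, 589 kept a call, 36 lost one and 14 gained one, and 30 uncalled values changed sign. Part of this tally was fixed in advance. Leaving out a library of neither compared group, and the replicate block, cannot change a difference, only its p-value. TDGF1 passed the filter for stages through blastocysts alone, which sets the direction of its stage differences. The tally is therefore a description and no measure of robustness. Precision is limited by 3 libraries per group of 1 to 4 embryos, by depth, which FPKM do not carry and which was not used here, and by FPKM being relative to each library's total. Causes of the changes were not tested except that stricter filters test fewer genes and leaving out libraries uses fewer samples.

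Vitrified against fresh 2-cells, 38 genes were called, 99 with a pseudocount of 0.1 and 25 without a filter, and 1 member (DPPA2) rather than 0 with the replicate block. In 4-cells 146 genes were called at a mean of at least 5 FPKM, and 672 genes and 2 members in 1 fit of all 18 libraries; the replicate block gave 486 genes and 2 members. In blastocysts a pseudocount of 0.1 gave 363 genes, and at a mean of at least 5 FPKM 0 members were called, since OTX2 was no longer tested. In fresh embryos 510 genes were called from 2-cells to 4-cells without a filter. A mean of at least 5 FPKM gave 4132 and 4277 genes for fresh blastocysts against 4-cells and 2-cells, and 4013 and 4152 in vitrified embryos. From 2-cells to 4-cells in vitrified embryos, 2 members were called without a filter and 1 (with 775 genes) with only the 6 libraries compared. The replicate block changed 2 calls of members, DPPA2 in 2-cells and OTX2 in 4-cells, and no other; 9 of 45 pairs of same-numbered libraries over the 6 groups correlated above 0.1.

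Signs of uncalled values turned under median ratio scaling for DPPA2 in 4-cells (0.11) and POU5F1 in blastocysts (-0.083), and under quantile normalization for fresh OTX2 from 2-cells to 4-cells (0.0051). LIN28A in blastocysts turned under both (-0.040 under quantile, -0.037 under median ratio), as did vitrified SALL4 from 2-cells to blastocysts (0.37 and 0.45). Over that step fresh SALL4 (1.08 and 1.18) and vitrified DPPA2 (2.21 and 2.34) became called under both.

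Leaving out each library gave 46 to 124 genes and 0 to 1 members in 2-cells, 171 to 739 genes and 0 to 2 members in 4-cells, and 167 to 303 genes and 0 to 1 members in blastocysts. It gave 464 to 1467 genes from 2-cells to 4-cells in fresh embryos, and 1 to 4 members in vitrified embryos. Vitrified minus fresh ranged in 2-cells from -0.46 to 0.28 for POU5F1 and from -0.00092 to 0.37 for OTX2. In 4-cells it ranged from -0.77 to 1.66 for NANOG and from -1.50 to 0.91 for DPPA2. In blastocysts it ranged from -0.27 to 0.45 for POU5F1, from -0.31 to 0.20 for SALL4 and from -0.45 to 0.71 for LIN28A. From 2-cells to 4-cells the range was -0.082 to 0.66 for fresh POU5F1, -0.33 to 0.16 for fresh OTX2 and -1.33 to 0.0081 for vitrified LIN28A. From 4-cells to blastocysts it was -0.16 to 0.35 for fresh SALL4 and -2.14 to 0.27 for vitrified DPPA2. From 2-cells to blastocysts it was -0.034 to 1.53 for fresh DPPA2 and -0.22 to 0.22 for vitrified SALL4.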

Other observations

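Fresh 2-cell replicate 2 held more of several transcripts than the other 2-cell libraries. NANOG was at 4.04 FPKM there and at most 0.199 FPKM in the other 5 of the 2-cell libraries, and DPPA2 was at 22.9 FPKM against at most 12.5 FPKM. The naive factor KLF17 was at 3.21 FPKM (at most 0.366 FPKM in the others), ZFP42 at 4.17 FPKM (at most 0.404 FPKM), and TFAP2C, a factor of early trophectoderm, at 8.23 FPKM (at most 1.94 FPKM). TFAP2C does not stand for its list: every other trophectoderm gene was below 1 FPKM in that library. Of these, GATA2, TFAP2A and ELF5 were lowest there, and GATA3 was highest. UBTFL1, the gene nearest to NANOG in its pattern, was at 3.49 FPKM there and at most 0.151 FPKM in the others. POU5F1 went the other way and was lowest there, at 28.1 FPKM against 31.1 to 80.3 FPKM in the others. SALL4, LIN28A and OTX2 lay within the others, as did the naive genes KLF4, DPPA5 and SOX15. These values rest on 1 pool of 4 embryos and were chosen after they were seen.

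GATA6, a factor of the early hypoblast, was at 8.09 FPKM in vitrified 4-cell replicate 3 and at 2.90 FPKM in fresh 4-cell replicate 3, against at most 1.62 FPKM in the other 4-cell libraries, and IGF2BP1 was at 42.3 and 10.4 FPKM in these libraries against at most 3.19 FPKM. SOX17 was listed at 0.0001 FPKM in all 4-cell libraries. The hypoblast genes GATA4 and APOE went the other way and were lowest in vitrified 4-cell replicate 3. GATA4 was at 0.725 FPKM there and at 1.49 to 6.15 FPKM in the other 4-cell libraries. APOE was at 0.0001 FPKM there and at 0.429 to 2.94 FPKM in the others.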
